A study of Mus musculus with 79 samples.

Results

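The 37 mouse strains that had a quadriceps array on both diets were split by the signal of a single probeset, H2-Ea-ps, and all other named genes were compared between the resulting classes. The classes were chosen by the mean of a strain's CD and HFD values of H2-Ea-ps, with a threshold of 8.35 score units. There were 14 high strains and 23 low strains, and they contributed 74 of the 79 arrays. The high strains were DBA/2J (D2) and 13 BXD strains, and the low strains were C57BL/6J (B6) and 22 BXD strains. BXD strains are inbred lines bred from crosses of B6 with D2, so that each line carries a fixed mosaic of the genomes of both parents. Cohorts were males fed a chow diet (CD, Harlan 2018) or a high fat diet (HFD, Harlan 06414) from 8 weeks of age. After an overnight fast they were sacrificed at 29 weeks. RNA of about 5 cohort members was pooled on each array, so a strain contributes 1 value per diet and variation among its animals is not seen.

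H2-Ea encodes the alpha chain of the E molecule of the major histocompatibility complex (MHC). E and A are the classical class II molecules of the mouse, each made of an alpha and a beta chain, and they present peptides from engulfed material to helper T cells. In skeletal muscle class II transcripts are known mainly from resident macrophages and dendritic cells rather than from fibres. B6 carries the b haplotype of the MHC, in which a deletion at the start of H2-Ea abolishes its transcription, hence the suffix that marks a pseudogene in the reference strain. D2 carries the d haplotype, in which the gene is transcribed. In a recombinant inbred panel, genes that lie close together on a chromosome are mostly inherited together from the same parent.

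A pair of class II promoters are shown because their genes lie beside H2-Ea-ps and were followed between the classes. Whether the class differences of these genes differ from each other was not tested. H2-Aa encodes the alpha chain of the A molecule and H2-Eb1 the beta chain of E, the partner of the H2-Ea product. The sequences are from RefSeq on GRCm38.p6 and are therefore those of B6, a low strain. Each runs from 250 bases before to 50 bases after the gene's start, chr17:34287774-34288073 on the minus strand for H2-Aa and chr17:34305617-34305916 on the plus strand for H2-Eb1. Capitals mark the letters of the class II Y box, an inverted CCAAT element.
H2-Aa: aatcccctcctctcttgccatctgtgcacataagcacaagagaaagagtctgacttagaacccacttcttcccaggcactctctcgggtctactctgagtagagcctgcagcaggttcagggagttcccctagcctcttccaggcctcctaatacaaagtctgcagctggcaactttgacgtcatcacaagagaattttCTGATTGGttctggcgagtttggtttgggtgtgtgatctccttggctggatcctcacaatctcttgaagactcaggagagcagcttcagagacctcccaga
H2-Eb1: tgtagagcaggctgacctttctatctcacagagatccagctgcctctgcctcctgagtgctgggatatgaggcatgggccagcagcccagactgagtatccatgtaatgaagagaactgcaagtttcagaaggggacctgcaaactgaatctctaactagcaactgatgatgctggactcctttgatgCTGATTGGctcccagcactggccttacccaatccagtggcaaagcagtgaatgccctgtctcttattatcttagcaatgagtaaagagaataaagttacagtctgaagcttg
The 8 letters CTGATTGG were found in both promoters, starting at base 200 of H2-Aa and at base 189 of H2-Eb1. Of the other H2 genes of class II with a promoter in the table, H2-Eb2 and H2-Oa held them on either strand, and H2-DMa, H2-DMb1, H2-DMb2 and H2-Ob did not. On either strand they were present in 1346 of the 32851 promoters of the table (4.1%).

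Values are scores on a log-type scale on which the deposited arrays were each set to a mean of 8.0 with an SD of 2.0. Differences are given in these score units as high minus low, since the log base was not stated. Muscle fibre genes checked the labelled tissue. The skeletal actin gene Acta1 averaged 15.16 units and the fast myosin gene Myh4 14.78 units, at the 99.9th percentile of all named genes.

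H2-Ea-ps chose the classes, so its levels are a description. In CD the low strains lay between 5.99 and 6.78 units with a median of 6.59, and the high strains between 8.48 and 10.58 with a median of 10.10. In HFD the low strains lay between 6.28 and 6.93 with a median of 6.65, and the high strains between 9.51 and 11.29 with a median of 10.23. Averaged over both diets, the strains nearest to the threshold were DBA/2J at 8.992 and BXD99 at 9.578 above it and BXD83 at 6.7585 below it. Every strain fell in the same class when either diet was used alone. The parents lay on opposite sides, B6 at 6.6215 and D2 at 8.992, and D2 was the lowest of the high strains. No genotypes were used, so the classes rest on this signal.

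**Figure D1:**
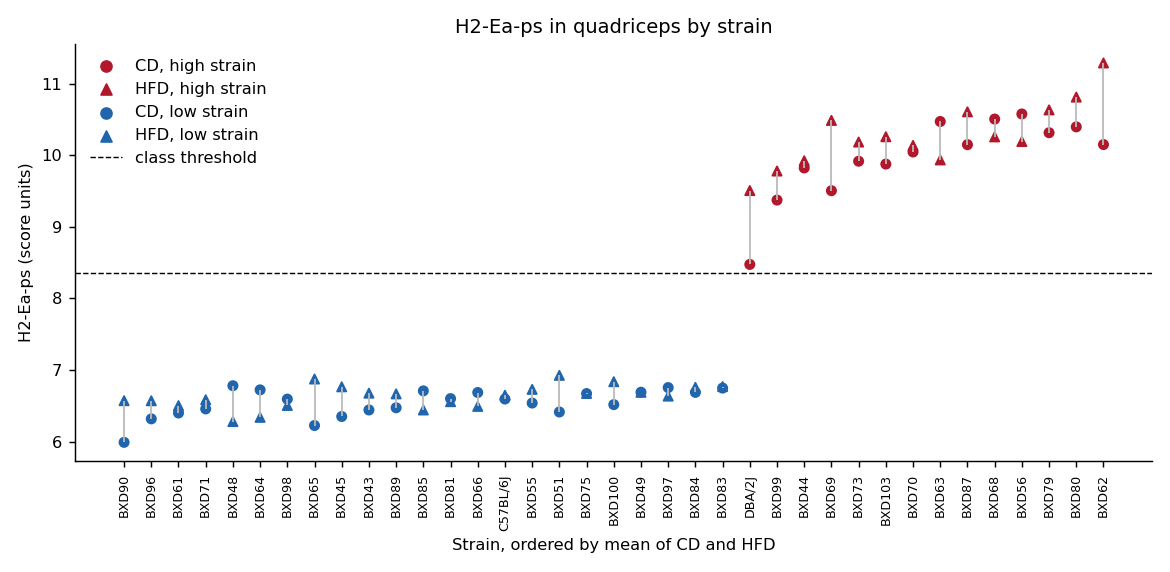
H2-Ea-ps on the y axis (score units) for each of the 37 strains, ordered on the x axis by the mean of both diets. Circles are CD arrays and triangles HFD arrays, red marks the 14 high strains, blue the 23 low strains, and the dashed line is the threshold of 8.35 units. No array lies between 6.93 and 8.48 units.

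The difference between diets within a strain was not used by the rule. Among the high strains H2-Ea-ps was higher in HFD than in CD in 11 of 14, by 0.316 units on average with an SD of 0.505 (exact sign permutation test over strains, two-sided, p = 0.0374). The strains with both arrays in the same batch carried less of it, with a mean of 0.185 units over 11 strains, against 0.797 units over the 3 strains whose arrays were in different batches. Among the low strains the mean was 0.0927 units, with 15 of 23 higher in HFD (sign permutation test with 100000 draws, two-sided, p = 0.143). The high and low strains differed in this diet change by 0.24 units (SE 0.13), with an unadjusted limma p of 0.0758.

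The classes were then compared over 22334 other named genes within each diet, with limma and batch as a term. In CD, 34 genes passed a Benjamini-Hochberg adjusted p of 0.05, which is 0.152% of the genes tested, 14 higher and 20 lower in the high strains. In HFD, 29 genes passed (0.13%), 14 higher and 15 lower. The called differences ranged in size from 0.134 to 0.913 units in CD and from 0.176 to 0.981 units in HFD, beside an SD of 0.0622 and 0.0661 units over all named genes. In addition 20 probesets without a gene symbol passed in CD and 12 in HFD. All 34 genes called in CD and all 29 called in HFD had the same sign in each batch analysed alone, but few passed the threshold there, 8 in each batch in CD and 5 in each in HFD. The batches are parts of the arrays that made the calls, so the shared sign is not a separate check. An array value cannot tell less transcript apart from weaker binding of a strain's own sequence to the probes. In pooled muscle RNA, fewer cells of a type and less RNA per cell cannot be told apart either.

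Position was the first property that the rule did not use. Of the called genes, 33 of 34 in CD and 25 of 29 in HFD were on chromosome 17, which holds H2-Ea. This was 3.25% of the 1016 other named genes placed there in CD and 2.46% in HFD. Genes were placed by symbol, and 5 of the calls in CD and 4 in HFD came from probesets numbered among those of other chromosomes. On the other chromosomes 1 gene in CD and 4 in HFD were called among 20148, or 0.00496% and 0.0199%. The calls were not confined to the MHC. On the side of H2-Ea-ps that holds the other class II genes, among the 25 measured genes nearest to it, 3 passed in CD and 5 in HFD. In both diets these included Pfdn6 and Rps18, whose called probesets were numbered elsewhere and whose probesets numbered on chromosome 17 did not pass. Among the 25 nearest on the opposite side, 0 passed with limma in either diet. From 26 to 100 genes away the opposite side held more, 8 of 75 in CD (10.7%) and 4 of 75 in HFD (5.33%), against 3 (4.0%) and 2 (2.67%) of 75 on the class II side. The opposite side's counts include H2-Q10 by its symbol. Its called probeset was numbered between those of Tapbp and Rxrb, 2 genes of the class II side. Over the next 150 genes on each side, 3 were called on the class II side and 1 on the opposite side in each diet. More than 250 genes away on the class II side, 13 of 220 genes were called in CD (5.91%) and 9 in HFD (4.09%). At that distance on the opposite side the counts were 1 of 295 in CD and 0 of 295 in HFD. The median size of the difference on the near class II side was 0.0975 units in CD and 0.0821 in HFD. Among the 25 nearest genes of the opposite side it was 0.0317 and 0.0548 units, and on the other chromosomes 0.0308 and 0.0352.

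**Figure D2:**
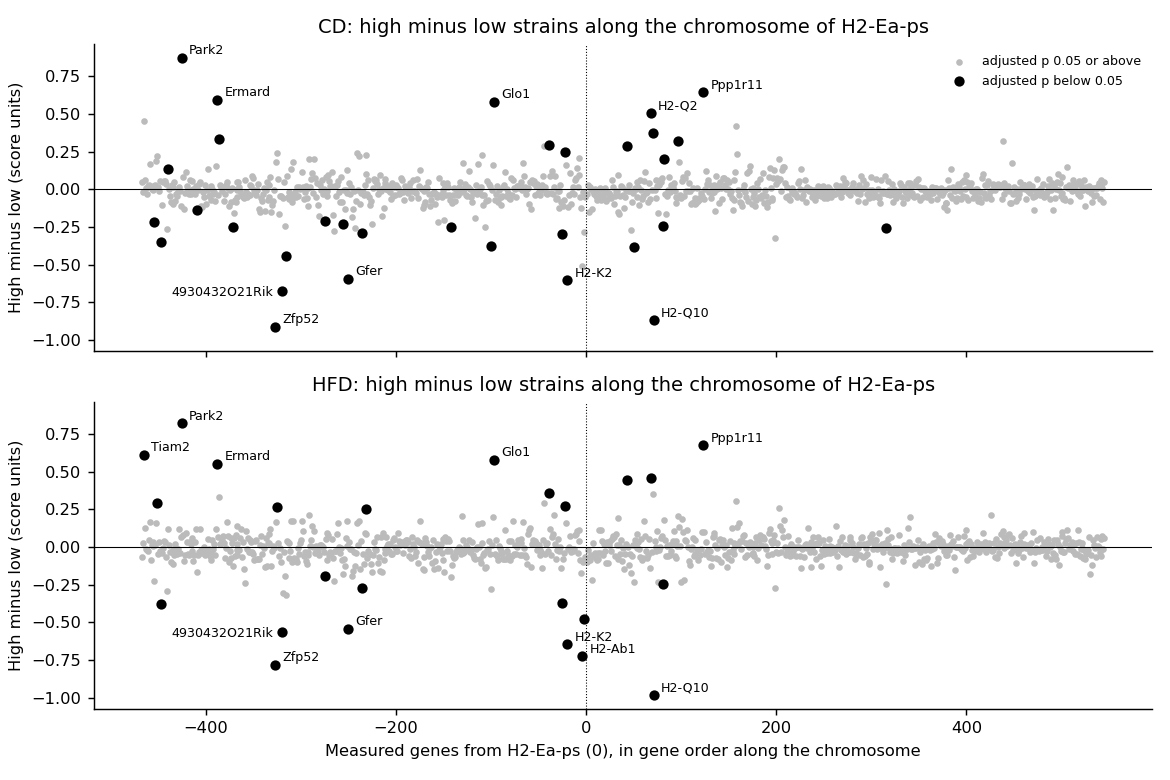
The high minus low difference (score units, y axis) of each ordered gene of chromosome 17 against its place in the gene order (x axis, number of measured genes from H2-Ea-ps, negative on the class II side), in CD above and in HFD below. Black points passed an adjusted p of 0.05 and are named where the difference exceeds 0.5 units in size. They extend from H2-Ea-ps far along the class II side and beyond Ppp1r11 on the other side the 1 called gene is Rab5a in CD.

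Ranges of the high and low strains that did not overlap were rare. H2-Q10 in CD was 1 such gene of 22334 (0.00448%), and H2-K2 and Ppp1r11 in HFD were 2 (0.00895%). H2-Q10 belongs to the nonclassical class I genes and in most tissues other than liver is weakly expressed. In CD it lay between 6.00 and 6.74 units in the high strains, with a median of 6.42, and between 6.91 and 7.68 in the low strains, with a median of 7.22. The difference was -0.87 units (SE 0.073, adjusted limma p = 3.48e-10). In HFD the high strains ranged from 5.89 to 7.07 with a median of 6.22 and the low strains from 6.96 to 7.98 with a median of 7.25, and 1 high strain reached into the low range. The difference there was -0.98 units (SE 0.0987, adjusted limma p = 4.19e-08). These values are of a probeset numbered among those of the class II side, not beside the other H2-Q genes. A second, dimmer H2-Q10 probeset, numbered just after that of H2-Q7, differed by 0.10 units in CD and 0.09 units in HFD and passed in neither (adjusted limma p = 1 and 0.988). Class I genes are near-identical copies of each other, so which copy a probeset measured is uncertain for all of them.

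Ppp1r11, an inhibitory subunit of protein phosphatase 1, separated the classes in the other direction. In HFD it lay between 9.03 and 9.60 units in the high strains (median 9.38) and between 8.40 and 8.85 in the low strains (median 8.70), a difference of 0.68 units (SE 0.048, adjusted limma p = 2.97e-12). In CD the high strains ranged from 8.82 to 9.55 (median 9.47) and the low strains from 8.60 to 8.94 (median 8.76), a difference of 0.64 units (SE 0.0472, adjusted limma p = 8.39e-12). Only BXD69 among the high strains fell into the low range in CD. H2-K2, a class I copy on the class II side, was lower in the high strains. It lay between 6.50 and 7.13 units in HFD (median 6.72) against 7.15 to 7.70 (median 7.41), a difference of -0.65 units (SE 0.0561, adjusted limma p = 8.93e-10). In CD the ranges were 6.20 to 7.21 and 6.97 to 8.03, with medians of 6.80 and 7.38, and 3 strains of each class lay inside the range of the other. The CD difference was -0.60 units (SE 0.0813, adjusted limma p = 2.59e-05).

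**Figure D3:**
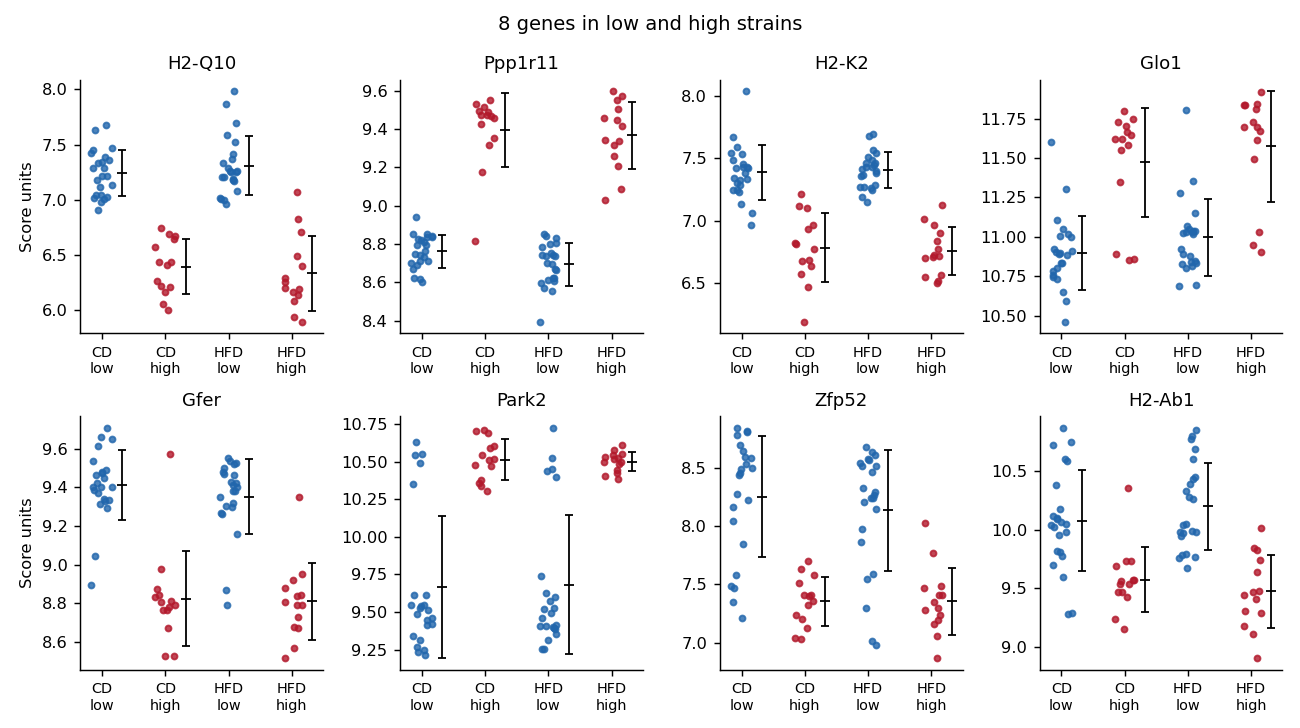
Score units (y axis) of 8 genes in the low strains (blue) and the high strains (red) on CD and HFD, 1 point per array and each panel on its own scale, with the mean and SD in black beside the points. H2-Q10, Ppp1r11 and H2-K2 separate or nearly separate the classes, while low strains sit among the high strains for Park2 (5 in each diet) and Zfp52 (5 in CD and 7 in HFD).

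Among the 24 class I genes listed, 20 were measured. In CD, 4 of them were higher in the high strains (H2-Q2, H2-Q7, H2-Q8 and H2-T24) and 2 were lower (H2-K2 and H2-Q10). In HFD, 2 were higher (H2-Q2 and H2-Q8) and the same 2 were lower. Over all named genes 0.152% were called in CD and 0.13% in HFD, and over chromosome 17 it was 3.25% and 2.46%. The list's median difference was 0.039 units in CD and 0.044 in HFD, beside -0.006 and -0.001 over all named genes. H2-Q2 lay between 9.32 and 10.28 units in the high strains and between 8.98 and 9.40 in the low strains in CD, with medians of 9.66 and 9.14, a difference of 0.50 units (SE 0.0629, adjusted limma p = 4.95e-06). In HFD the difference was 0.46 units (SE 0.0856, adjusted limma p = 0.00585). H2-Q8 differed by 0.44 units in CD and 0.43 in HFD. The classical class I heavy chains H2-K1 and H2-D1, which present peptides to cytotoxic T cells, did not pass in either diet. H2-K1 differed by -0.12 units in CD (SE 0.0862) and -0.02 in HFD (SE 0.0956), and H2-D1 by 0.04 (SE 0.0797) and 0.05 (SE 0.0832). Their shared light chain B2m differed by 0.19 units in CD (SE 0.0809) and 0.12 in HFD (SE 0.0898), which did not pass.

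Of 15 class II genes listed, 14 were measured, and in HFD 2 passed, both lower in the high strains, namely H2-Ab1 and H2-Eb1, the beta chains of A and E. The share called in HFD was 0.13% of all named genes and 2.46% of those on chromosome 17. In CD, 0 passed with limma. The median difference of the list was 0.006 units in CD and -0.016 in HFD. H2-Ab1 lay between 8.90 and 10.01 units in the high strains (median 9.45) and between 9.67 and 10.85 in the low strains (median 10.05) in HFD, a difference of -0.73 units (SE 0.116, adjusted limma p = 0.000482). In CD the ranges were 9.15 to 10.36 and 9.28 to 10.87, with medians of 9.55 and 10.05, and the difference of -0.51 units (SE 0.127) did not pass (adjusted limma p = 0.113). H2-Eb1 differed by -0.48 units in HFD (SE 0.105, adjusted limma p = 0.0401) and by -0.29 in CD (SE 0.102, adjusted limma p = 0.852). Its HFD range was 8.90 to 9.88 in the high strains and 9.29 to 10.52 in the low strains, with medians of 9.52 and 9.84, and the call was lost when any of 19 of the 37 strains was left out. Thus the classes overlapped for both beta chains in both diets.

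The alpha chain H2-Aa, which lies between these beta chain genes and whose promoter is shown above, differed by -0.02 units in CD (SE 0.151) and -0.10 in HFD (SE 0.125). Its medians in the high and low strains were 10.22 and 10.20 units in CD and 10.26 in both in HFD. H2-Eb2, the immediate neighbour of H2-Ea-ps, differed by -0.05 and -0.07 units. Cd74, the invariant chain that escorts class II molecules, differed by 0.14 units in CD (SE 0.13) and 0.01 in HFD (SE 0.132). Ciita, the master regulator of class II transcription, differed by 0.02 and -0.02 units. The peptide loading genes H2-DMa and H2-DMb2 differed by 0.07 and 0.14 units in CD and by 0.08 and 0.10 in HFD, and the DM inhibitor gene H2-Ob by -0.12 and -0.17 units, none of which passed.

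**Figure D4:**
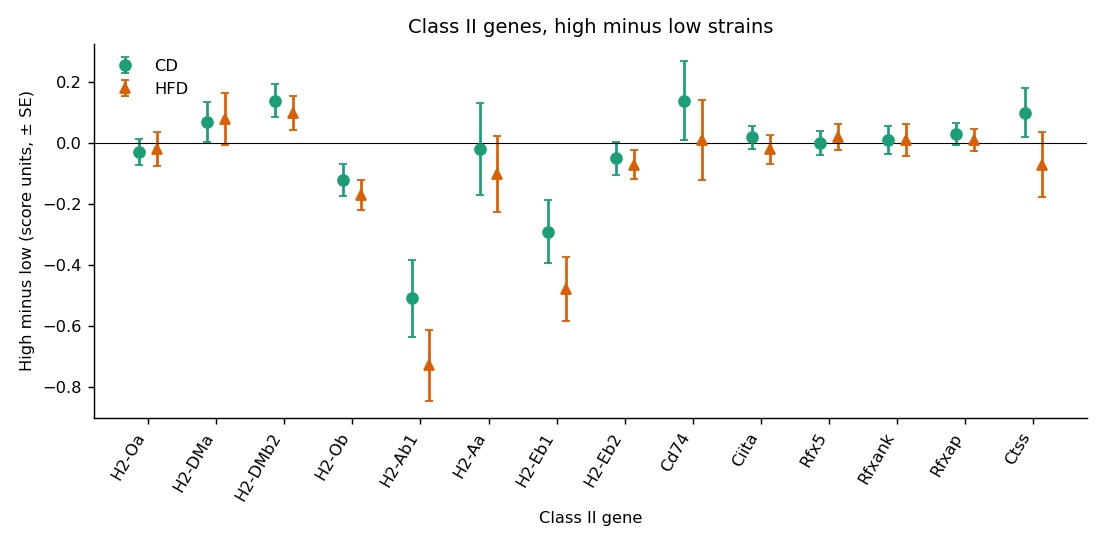
High minus low difference (score units, y axis, with SE bars) of the 14 measured class II genes (x axis), in CD (circles) and HFD (triangles). The first 8 genes are in chromosomal order and the last 6 lie elsewhere. H2-Ab1 and H2-Eb1 are below 0 in both diets, while H2-Aa between them is near 0.

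A list of class III genes of the MHC, which include complement, cytokine and many unrelated genes, also held Brd2, Col11a2, Rxrb, Slc39a7, Ring1 and Daxx, which lie on the class II side of H2-Ea-ps. Of its 49 genes 46 were measured and 1 passed in each diet, Clic1, a chloride intracellular channel protein. That share is close to the 3.25% in CD and 2.46% in HFD called over all of chromosome 17. In HFD it lay between 8.52 and 9.36 units in the high strains (median 8.88) and 8.18 and 8.68 in the low strains (median 8.52), a difference of 0.44 units (SE 0.0618, adjusted limma p = 5.84e-05). In CD it differed by 0.29 units (SE 0.0521, adjusted limma p = 0.00314). The median difference of the list was -0.031 units in CD and -0.010 in HFD. The complement genes C4a and C4b and the cytokine genes Tnf and Ltb did not pass, with differences between -0.07 and 0.17 units. Of the 13 antigen processing genes 0 passed with limma in either diet, and the list's median difference was 0.026 units in CD and -0.003 in HFD. Tap1, a peptide transporter subunit encoded close to H2-Ea-ps, differed by 0.21 units in CD (SE 0.0694) and 0.11 in HFD (SE 0.08), and the immunoproteasome subunit Psmb8 by 0.10 and 0.04.

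Toward the class II end of the chromosome the called genes were of varied function. Zfp414, a zinc finger gene, was higher in the high strains by 0.29 units in CD (SE 0.0416, adjusted limma p = 6.51e-05) and 0.36 in HFD (SE 0.0421, adjusted limma p = 2.35e-06). Glo1, the glyoxalase that detoxifies methylglyoxal, lay between 10.86 and 11.80 units in the high strains (median 11.62) and between 10.46 and 11.60 in the low strains (median 10.89) in CD. It differed by 0.58 units in each diet (adjusted limma p = 0.000533 in CD and 0.00089 in HFD). The Glo1 values did not follow the classes exactly. The high strains BXD70, BXD79 and BXD87 and the low strains BXD65 and BXD98 lay on the side of the other class in both diets, taking the midpoint between the class means as the divide. Gfer, a sulfhydryl oxidase of the mitochondrial intermembrane space, was lower in the high strains. It lay between 8.52 and 9.57 units (median 8.80) against 8.90 to 9.71 (median 9.40) in CD, a difference of -0.59 units (SE 0.0707, adjusted limma p = 1.83e-06), and differed by -0.54 in HFD (SE 0.0666, adjusted limma p = 4.91e-06). In both diets BXD70, BXD64 and BXD98 lay on the other side for Gfer.

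Park2 and Zfp52 lay 425 and 327 measured genes from H2-Ea-ps and were among the largest differences of either diet. Park2 encodes parkin, an E3 ubiquitin ligase of mitophagy. In CD it lay between 10.30 and 10.71 units in the high strains (median 10.51) and between 9.22 and 10.63 in the low strains (median 9.51), and the difference was 0.87 units (SE 0.126, adjusted limma p = 7.8e-05). In HFD it was 0.82 units (SE 0.122, adjusted limma p = 0.000147), with ranges of 10.39 to 10.61 and 9.25 to 10.72. The 14 high strains were close together, and the spread was in the low strains, where BXD45, BXD51, BXD55, BXD64 and BXD75 had values like those of the high strains in both diets. Zfp52, a zinc finger gene, lay between 7.03 and 7.70 units in the high strains (median 7.38) and between 7.21 and 8.85 in the low strains (median 8.46) in CD, a difference of -0.91 units (SE 0.144, adjusted limma p = 0.000359). Its HFD difference was -0.78 units (SE 0.148, adjusted limma p = 0.00645). For Zfp52 and for Ermard, which was 0.59 units higher in CD and 0.55 in HFD, the low strains BXD45, BXD51, BXD64, BXD75 and BXD98 lay on the side of the high strains in both diets. The gene 4930432O21Rik, 320 measured genes from H2-Ea-ps, ranged from 8.26 to 9.25 units in the high strains and from 8.79 to 9.97 in the low strains in CD, with medians of 8.93 and 9.60. It differed by -0.67 units in CD (SE 0.093, adjusted limma p = 3.87e-05) and -0.56 in HFD (SE 0.0842, adjusted limma p = 0.000147). Its low strains BXD64, BXD75 and BXD98 lay on the other side in both diets. The zinc finger gene Zfp758, at -0.44 units, and Gm10510, at 0.34 units, passed in CD and not in HFD, where they differed by -0.32 and 0.33 units. Tagap1, the gene farthest out among those called in both diets, differed by -0.35 units in CD and -0.38 in HFD, with BXD55, BXD71, BXD75, BXD84 and BXD85 as the low strains on the other side. Among the genes called in both diets within 123 genes of H2-Ea-ps, Glo1 had 5 strains on the other side in both diets, Pfdn6, Zfp414, Clic1, H2-K2, Gtf2h4 and H2-Q2 had 1 each, and H2-Q10, Ppp1r11 and Rps18 had 0. H2-Q8, which was not placed in the gene order, had 6. Its probeset was numbered between those of H2-Q1 and H2-Q6, which lay 67 and 69 genes from H2-Ea-ps.

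Across diets, 20 genes were called in both, which is 58.8% of the CD calls and 69.0% of the HFD calls, and all 20 had the same direction. The classes are the same strains in both diets, and the cohorts on each diet were different animals. Of the 43 genes called in either diet, 42 had the same sign in both, and the exception was Cyp4f18. Besides those described, the genes called in both were Pfdn6, Gtf2h4, Kctd5 and Spsb3, all lower in the high strains, and Rps18, higher. Gtf2h4, a subunit of the transcription and repair factor TFIIH, differed by -0.24 units in CD (SE 0.035, adjusted limma p = 8.11e-05) and -0.25 in HFD (SE 0.0373, adjusted limma p = 0.000166). Kctd5 lost its HFD call when any of 27 of the 37 strains was left out. Rsl1 is the only one of the 20 on another chromosome. Called in CD only, 14 genes included Tsc2, which encodes tuberin, an inhibitor of mTORC1 signalling, at -0.23 units (SE 0.0446, adjusted limma p = 0.00697). Its HFD difference of -0.18 units did not pass (adjusted limma p = 0.237). The collagen receptor Ddr1, at 0.20 units in CD and 0.18 in HFD, the general transcription factor subunit Taf11, at -0.25 and -0.20, and the phosphatidylserine lipase Abhd16a, at -0.38 and -0.24, were further examples. Mdga1, at -0.38 units in CD, lost its call when any of 21 of the 37 strains was left out. The 9 called in HFD only included Tiam2, an activator of the GTPase Rac, at 0.61 units (SE 0.121, adjusted limma p = 0.0122) and 0.45 in CD (adjusted limma p = 0.311), and the dynein light chain Dynlt1b, at 0.29 and 0.22 units.

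These differences between diets did not pass their own test. Over 22334 named genes, limma on the HFD minus CD value of each strain called 0 at an adjusted p of 0.05, with 754 at an unadjusted p under 0.05 and a smallest p of 0.000257. By chance 1117 genes would be expected at an unadjusted p under 0.05. The methods' t-test called 0 as well, with 855 under the unadjusted threshold, and limma-trend called 0 with 745. For H2-Ab1 the HFD difference minus the CD difference was -0.22 units (SE 0.12, unadjusted p = 0.0732), for H2-Eb1 it was -0.20 (SE 0.0997, unadjusted p = 0.0497), and for Clic1 it was 0.17 (SE 0.0625, unadjusted p = 0.0102).

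Some names rest on probesets that call for care. For Pfdn6, Rps18, Glo1, Abhd16a and Wtap in CD, the brightest probeset was numbered among probesets of other chromosomes, with 0 of the 10 nearest on chromosome 17. The same held for Dynlt1b, called in HFD, whose second probeset had 7 of 10 there and gave like values, 0.22 units in CD and 0.28 in HFD, passing in HFD alone (adjusted limma p = 0.0807 and 0.00585). For Glo1 and Abhd16a a second probeset numbered among those of chromosome 17 gave like values. It differed by 0.57 and 0.58 units in CD and HFD for Glo1 and by -0.34 and -0.31 for Abhd16a, and passed in both diets for both genes, including HFD for Abhd16a, where the brightest did not. For Pfdn6 such a probeset differed by -0.04 and -0.09 units, for Rps18 by 0.13 in each diet and for Wtap by 0.09 and 0.04, and none passed. For Pfdn6, Rps18 and Wtap the call therefore rests on probesets numbered elsewhere. This count of neighbours looked at the chromosome alone. Within chromosome 17, the H2-Q10 call rests on a probeset numbered on the class II side, and the one numbered beside the H2-Q genes did not pass. Dimmer probesets of further genes gave other values as well. The called H2-Q2 probeset was numbered between those of H2-T22 and H2-Bl. A second H2-Q2 probeset was numbered between those of H2-D1 and H2-Q1, the neighbours of H2-Q2 in the gene order. The second differed by 0.14 units in CD and 0.15 in HFD and did not pass (adjusted limma p = 0.267 and 0.865). The other Park2 probeset, numbered among those of other chromosomes, differed by -0.20 and -0.10 units and did not pass (adjusted limma p = 1 and 0.995). Of the 3 other Ermard probesets, 1 passed in both diets at 0.33 and 0.27 units, and the remaining 2 differed by 0.16 and 0.06 in CD and by 0.07 and -0.02 in HFD without passing.

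Away from chromosome 17, Rsl1 on chromosome 13 was called in both diets. It encodes a zinc finger repressor, named for its control of the sex-limited protein gene, which is C4a. In CD Rsl1 lay between 7.66 and 8.27 units in the high strains (median 7.90) and between 7.70 and 8.88 in the low strains (median 8.56), a difference of -0.50 units (SE 0.103, adjusted limma p = 0.0136). In HFD the ranges were 7.50 to 8.73 and 7.79 to 8.95, with medians of 7.87 and 8.64, a difference of -0.61 units (SE 0.112, adjusted limma p = 0.00422). The classes overlapped widely in both diets. Within batches the CD difference was -0.77 units in batch 1 and -0.29 in batch 2, and the HFD difference -0.88 and -0.40. C4a differed by -0.06 units in CD (SE 0.0701) and 0.03 in HFD (SE 0.0605). The other calls away from chromosome 17 were in HFD alone. Cyp4f18, a cytochrome P450 on chromosome 8, differed by -0.20 units (SE 0.0446, adjusted limma p = 0.0445), the olfactory receptor Olfr786 on chromosome 10 by -0.21 (SE 0.0442, adjusted limma p = 0.0326) and the tRNA methyltransferase Trmt2a on chromosome 16 by 0.18 (SE 0.0385, adjusted limma p = 0.0408). Their CD differences were 0.01, -0.08 and 0.00 units. The call was lost on leaving out any of 25 of the 37 strains for Cyp4f18, of 14 for Olfr786 and of 23 for Trmt2a.

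The parental strains were set beside a fit of the 13 high and 22 low BXD strains alone. In CD that fit called 34 named genes, and D2 minus B6 had the sign of the BXD difference in 30 of them, the exceptions being Vps52, Flywch1, Hn1l and Ddr1. In HFD it called 25 genes, and the sign was shared by 24, all but Cyp4f18. Over all named genes the sign was shared by 51.1% in CD and 49.9% in HFD. H2-Q10 was 6.74 units in D2 and 7.332 in B6 in CD, and 6.137 and 7.205 in HFD. Park2 was 10.334 in D2 and 9.232 in B6 in CD. H2-K2 was 7.212 in D2 and 7.249 in B6 in CD, close together, and 6.52 and 7.414 in HFD.

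Genes of other cell types were followed as lists, since class II genes are expressed by immune cells. Of 15 macrophage and dendritic cell genes, 6 B cell genes and 9 T cell genes, 0 passed with limma in either diet. The mean of the macrophage and dendritic cell list ranged from 8.22 to 8.53 units in the high strains and from 8.01 to 8.61 in the low strains in CD, and from 8.16 to 8.79 and from 8.25 to 8.73 in HFD. The median difference of its genes was 0.004 units in CD and -0.009 in HFD. For B cells the median was -0.001 in CD and -0.046 in HFD, and for T cells 0.020 and -0.007. The adipocyte list of 14 genes had a median of 0.036 units in CD and 0.121 in HFD, the 12 muscle fibre genes -0.007 and -0.072, and the 5 measured red blood cell genes 0.033 and -0.011, with 0 called in each. Their part in the class differences was not tested.

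The interferon response list, of which 16 of 17 genes were measured, had a median difference of 0.113 units in CD and 0.065 in HFD, beside -0.006 and -0.001 over all named genes, and 0 passed with limma. The difference of Ifit3 was 0.36 units in CD (SE 0.112, adjusted limma p = 0.532) and 0.19 in HFD (SE 0.127, adjusted limma p = 0.995). Iigp1, an interferon-inducible GTPase with the largest difference of the list in CD, differed by 0.47 units in CD (SE 0.234, adjusted limma p = 1) and 0.27 in HFD (SE 0.233, adjusted limma p = 0.995). BXD80, a high strain, had the highest list mean in both diets, 8.90 units in CD, where the next strain, BXD62, had 8.39, and 8.69 in HFD, where BXD62 had 8.67. Without that strain the median of the plain differences between class means fell from 0.117 to 0.091 in CD and from 0.065 to 0.046 in HFD.

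The spread of H2-Ea-ps inside a class was not used by the rule, and within the high strains it was set against 8 genes of antigen presentation and immune cells in each diet, which makes 16 relations. Pearson's r passed an adjusted p of 0.05 in 6 and Spearman's rho in 9, by two-sided permutation tests with 100000 draws and Benjamini-Hochberg adjustment over the 16. Without 1 strain, DBA/2J, Pearson's r passed in 10, adding H2-Aa and H2-Eb1 in CD and Ptprc and Itgax in HFD. Over all 14 strains Cd74 had the highest Pearson's r in each diet. In CD it had r = 0.781 over 14 strains (permutation p = 0.00051, adjusted p = 0.00408) and rho = 0.921 (permutation p = 3e-05, adjusted p = 0.00048), and in HFD r = 0.820 (permutation p = 0.00034, adjusted p = 0.00408) and rho = 0.719 (permutation p = 0.00511, adjusted p = 0.0164). Leaving out the 2 strains farthest from the median H2-Ea-ps value, DBA/2J and BXD99, left r = 0.835 in CD (permutation p = 0.00076). In HFD these were BXD62 and DBA/2J, and r was then 0.577 (permutation p = 0.0494). Without these strains other genes had a higher r than Cd74, H2-DMa in CD and H2-Eb1 in HFD, and in HFD the rho of H2-Eb1 was the higher one over all 14. Within batches r was 0.720 and 0.954 in CD and 0.856 and 0.803 in HFD, over 6 to 8 strains.

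H2-Eb1 was related to H2-Ea-ps in HFD, with r = 0.733 (permutation p = 0.0026, adjusted p = 0.0104) and rho = 0.727 (permutation p = 0.00471, adjusted p = 0.0164), and r was 0.733 without the strains farthest from the median. In CD r was 0.453 (permutation p = 0.107, adjusted p = 0.167) and rho 0.622 (permutation p = 0.0198, adjusted p = 0.0397). For H2-Aa the HFD values were r = 0.774 (permutation p = 0.00109, adjusted p = 0.00581) and rho = 0.697 (permutation p = 0.00728, adjusted p = 0.0194). Pearson's r was 0.545 when BXD62 and DBA/2J were both left out (permutation p = 0.0686), which no longer passes, and 0.690 without DBA/2J alone (adjusted permutation p = 0.0276). Within batches it was 0.806 and 0.770, and 0.786 with batch means removed (adjusted permutation p = 0.00475). In CD H2-Aa had r = 0.519 (permutation p = 0.0669, adjusted p = 0.119) and rho = 0.741 (permutation p = 0.00356, adjusted p = 0.0164). H2-DMa had r = 0.702 in CD (permutation p = 0.00412, adjusted p = 0.0118) and rho = 0.829 (permutation p = 0.00043, adjusted p = 0.00344), with r = 0.894 without the farthest strains. In HFD its r of 0.708 (permutation p = 0.00443, adjusted p = 0.0118) came with rho = 0.481 (permutation p = 0.0841, adjusted p = 0.112). It fell to 0.414 when BXD62 and DBA/2J were both left out (permutation p = 0.181), while without DBA/2J alone it was 0.701 (adjusted permutation p = 0.0276). It was 0.907 in batch 1 and -0.00255 in batch 2, and 0.703 over both after batch means were removed (adjusted permutation p = 0.0125).

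For H2-Ab1, r was 0.277 in CD (permutation p = 0.293, adjusted p = 0.335) and 0.563 in HFD (permutation p = 0.0352, adjusted p = 0.0705), and rho was 0.481 (adjusted p = 0.112) and 0.600 (adjusted p = 0.047). Ptprc, which encodes the leukocyte antigen CD45, had r = 0.430 in CD (permutation p = 0.125, adjusted p = 0.167) and 0.600 in HFD (permutation p = 0.0237, adjusted p = 0.0541), with rho = 0.556 (adjusted p = 0.0657) and 0.684 (adjusted p = 0.0199). Ciita had r = -0.0486 in CD and 0.389 in HFD, and the dendritic cell integrin Itgax 0.0196 and 0.431, none of which passed by r or rho. H2-Ea-ps lay near 6.6 units in the low strains and had less spread to relate. Its SD was 0.196 units in CD and 0.161 in HFD there, against 0.563 and 0.457 in the high strains. In the low strains 0 of the same 16 relations passed by either measure. Their r ranged from -0.330 to 0.346 over 23 strains, and the smallest permutation p was 0.106 (adjusted p = 0.662). Whether r differed between the classes was not tested.

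**Figure D5:**
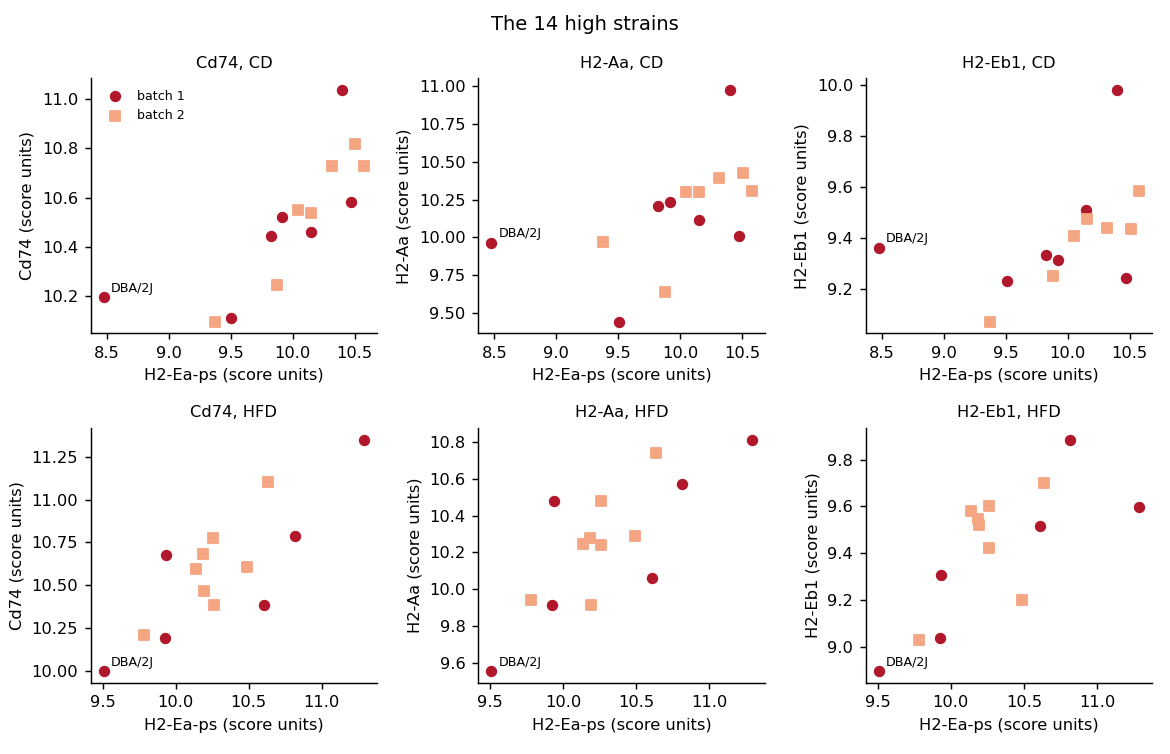
Cd74, H2-Aa and H2-Eb1 (y axes, score units) against H2-Ea-ps (x axes, score units) in the 14 high strains, CD above and HFD below, with dark circles for batch 1 and light squares for batch 2. Cd74 rises with H2-Ea-ps in both diets, r = 0.781 in CD and 0.820 in HFD, and DBA/2J has the lowest H2-Ea-ps value in each.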

How the data were processed

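Pooled quadriceps RNA was hybridised to Affymetrix Mouse Gene 1.0 ST arrays. The submitters' processing notes name Affymetrix Expression Console. The values deposited by the authors are a score per probeset, scaled to a mean of 8.0 and an SD of 2.0 on each array. The log base, summarization and any batch correction are not given in the sources used here. The tests had been planned for log-scale values and were run unchanged on this score. Groups and strains came from the labels, and both batches from the titles. CD batch 1 held 7 high and 8 low strains and batch 2 held 7 and 15, and HFD held 6 and 11, and 8 and 12. The chow column BXD92 was matched to BXD92a. Precision is limited by the number of arrays.

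limma (version 3.58.1) was fitted to all 35556 probesets within each diet, with class and batch as terms, and to the HFD minus CD values of each strain, paired by the strain name in the labels, with the batch difference as a term. The code was tested on simulated data. The brightest probeset stood for each of 22335 symbols. H2-Ea-ps had 1 probeset, 10450161, and was left out of all counts. RefSeq names (GRCm38.p6) matched 18783 symbols directly and 2385 as synonyms, while 1167 were not placed. The table names no build, so RefSeq served for names and gene order. Named were the 10 largest called differences per direction and diet, called genes of other chromosomes, the 5 largest differences between diets per direction (there were 0 called), and members of the MHC, antigen processing and interferon lists. Other called genes, and the strains named beside Glo1, Gfer, Park2, Zfp52 and Ermard, were picked after their values were seen. Members and lists were chosen with earlier results of these data known. The values of 1 gene of the interferon list, which counts in its totals, are not reported here.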

Additional observations from a re-analysis of the deposited data

Results flagged for a closer look

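Of the 5 strains that had a CD array alone and entered no class, BXD50 and BXD101 were above the highest low strain of CD, 6.78 units, for H2-Ea-ps. BXD50 was at 9.735 units, inside the range of the high strains. BXD101 was at 6.81 units, below the 6.93 units that a low strain reached in HFD.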

How the results depend on the processing

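The counts of called genes were lower in each batch alone, where the number of arrays, the batch and the class balance all changed at once. Batch 1 alone called 10 genes in CD and 5 in HFD, and batch 2 alone 8 and 5. On chromosome 17 these were 7 and 4 in batch 1 and 8 and 5 in batch 2. Leaving out each strain in turn gave 30 to 39 calls in CD and 25 to 32 in HFD. With both diets in one fit and strain as a replicate block (consensus correlation 0.15), 41 genes were called in CD, 33 of them shared with the 34, and 42 in HFD, 27 shared with the 29, while the difference between diets called 0 in the block fit. The other alternatives gave 30 to 46 calls in CD and 25 to 33 in HFD. The highest count came with the strains of CD alone added in CD and with the methods' t-test in HFD. These alternatives covered the batch term, the parents, BXD63, normalization, dim probesets, the probeset that stands for a gene, the methods' t-test, limma-trend, classes from the other diet and median centring, the last of which was added after seeing the data, as was leaving out each strain. Classes from the other diet were the same for every strain, so that fit could not differ from the main one. Of 63 gene results past the threshold, 52 stayed past it under the alternatives run other than the single batches and the dimmest probeset, and 0 reversed under these or in the single batches. The single batches are parts of the arrays that made the calls, so their signs are not a separate check. For 10 of the 63 no value was left once dim probesets were left out. The dimmest probeset could be set against 19 results of genes with several, where 6 stayed past the threshold, 6 did not and 7 reversed without passing, namely H2-Q10 (0.10 in CD and 0.09 in HFD), Park2 (-0.20 and -0.10), Ermard in HFD (-0.02), Hn1l in HFD (-0.06) and Wtap in CD (0.09). The cause was not tested. Past the threshold in every alternative run for them were H2-K2 in HFD, which had no value with dim probesets left out, and Ppp1r11 in both diets. Without the parents, which takes DBA/2J alone from the high strains, 10 of the 16 relations of H2-Ea-ps in the high strains passed, against 6 with them. The additional ones were H2-Aa (r = 0.628) and H2-Eb1 (r = 0.639) in CD and Ptprc (r = 0.625) and Itgax (r = 0.622) in HFD. With batch means removed 8 passed, adding H2-Ab1 (r = 0.643) and Ptprc (r = 0.634) in HFD, and without BXD63 6 passed.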

Other observations

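BXD50 was also on the side of the high strains for 19 of the 20 genes called in both diets, taking the midpoint between the CD class means as the divide. BXD60 was on that side for 7 of the 20, and BXD92a, BXD95 and BXD101 for 2 each. For H2-Q10, BXD50 had 6.566 units, for Ppp1r11 9.372, for Park2 10.551 and for H2-Ab1 9.397, each within the CD range of the high strains. For Park2 and H2-Ab1 the low strains also reach these values, with CD ranges of 9.22 to 10.63 and 9.28 to 10.87 units. The array of BXD50 entered none of the fits that made those 20 calls.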
